A study of Homo sapiens with 8 samples.

Results

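RNA-Seq values of 40 genes of homologous recombination and the Fanconi anemia pathway were examined in MDA-MB-231 cells cultured with or without N-(1-carboxymethyl)-L-lysine (CML), an advanced glycation end product that forms when sugars react with lysine. The 40 genes were chosen by symbol, for their known roles in the repair of broken or crosslinked DNA, with earlier results of these data known. All 40 were present among the 17649 gene symbols of the expression table. MDA-MB-231 is an established, estrogen receptor-negative human breast cancer line. The CML group comprised 4 libraries, titled NCML, from cells exposed to 1 μM CML for 48 hours. The control group comprised 4 libraries from cells given phosphate-buffered saline. Both groups grew in medium with 5 mM glucose. The cells were the parental line with no engineered allele named, and RNA was taken from whole cultures. Whether the 4 libraries of a group came from independent cultures is not stated, so that the p-values measure the spread between these libraries, which may be technical.

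Homologous recombination repairs a double-strand break by copying the intact sister chromatid, and is therefore used mainly in S and G2 phase. The MRE11, RAD50 and NBN proteins sense the break and, with RBBP8 (CtIP), cut back one strand of its ends. BRCA1, PALB2 and BRCA2 then load a recombinase onto the exposed single strand. The Fanconi anemia pathway deals with crosslinks that tie both DNA strands together: its core complex, with the ubiquitin-conjugating enzyme UBE2T, attaches ubiquitin to the FANCD2-FANCI pair, and nucleases held by SLX4 then cut the crosslink out. Inherited loss of BRCA1 or BRCA2 predisposes to breast cancer, and tumors that lack them depend on polymerase theta (POLQ) and respond to PARP inhibitors. Many of these genes are transcribed with the cell cycle, through promoters bound by E2F factors or by complexes that read a CCAAT box and a cell cycle homology region (CHR).

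Promoter sequences from RefSeq (build GRCh38.p14) were available for 36 of the 40 genes, as 48 windows of 300 bases around a transcription start. Promoters of FANCI, NBN, RAD54B and WRN were not analysed here. The E2F words TTTCGCGC, TTTGGCGC, TTTCCCGC and TTTGGCGG, the CCAAT box and the CHR word TTTGAA were searched on both strands. An E2F word lay in the windows of 3 genes, FANCC, FANCD2 and XRCC2, or 6.25% of the 48 windows against 3.35% of all 35116 promoter windows and 5.11% of the windows of the expressed genes, defined here by a mean CPM (counts scaled to the size of the library) of 1 or more. The CHR word lay in those of 5 genes, ATM, BRIP1, FANCC, POLQ and UBE2T, or 10.4% of the windows against 15.2% of all promoters and 10.4% of those of the expressed genes. CCAAT lay in those of 17 genes, or 45.8% against 34.6% and 35.0%. The stretches below are shown because they carry the E2F words found among the 40 genes and the CHR words of POLQ and BRIP1, which had the largest differences with CML. The capitals mark the word, which reads in the reverse complement where it lies on the other strand, and each sequence is printed 5′ to 3′ on the strand of its gene.
FANCD2 (E2F, chr3:10026424-10026453, plus strand, over the transcription start): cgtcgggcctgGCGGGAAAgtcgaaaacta
FANCC (E2F, chr9:95317863-95317892, minus strand, upstream): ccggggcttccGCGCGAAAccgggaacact
FANCC (E2F, chr9:95317737-95317766, minus strand, upstream): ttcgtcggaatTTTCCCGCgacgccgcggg
XRCC2 (E2F, chr7:152676102-152676131, minus strand, just inside the transcript): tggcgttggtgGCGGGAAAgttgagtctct
POLQ (CHR, chr3:121545969-121545996, minus strand, just inside the transcript): ggaggtttgagTTTGAAgactggcggga
POLQ (CHR, chr3:121546202-121546229, minus strand, upstream): tggccttcctaTTCAAAccagaaatgga
BRIP1 (CHR, chr17:61863752-61863778, minus strand, upstream): tatcgccggtTTCAAAagtcaaactga
The median log2 difference was 0.11 for the 3 genes with an E2F word and 0.050 for the other 33, and 0.14 for the 5 genes with a CHR word and 0.050 for the other 31. For CCAAT the order was the opposite, with 0.051 for the 17 genes that held it and 0.070 for the rest. These letters are matches, and binding was not measured.

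Recovered read steps put the depth at 16161801 to 18954732 reads a library, so that 1 read was worth 0.0535 to 0.0622 CPM, and the 40 genes ranged from 17 reads (FANCB) to 2123 reads (ATM) in a library. The cell identity markers were as known for this mesenchymal-like line for VIM, AXL and CD44, with means of 4109, 1206 and 850 CPM, while CDH1 and PGR were near 0 at 0.65 and 0.021 CPM. EPCAM, a marker placed among the low ones, was at 14.5 CPM. Of 6 markers of other cell types, PTPRC and FOXA1 were at 0.38 and 0.022 CPM and the rest between 3.21 (PECAM1) and 10.8 CPM (COL1A1). The summed level of those 6 was 21.9 to 24.1 CPM in the control libraries and 19.6 to 26.5 CPM in the CML libraries.

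None of the 40 genes passed an adjusted p of 0.3 (limma on log2(CPM + 1), Benjamini-Hochberg over 17649 genes), the level at which 0.674% of all genes were higher and 0.221% lower with CML. At an unadjusted p under 0.05, 6 genes were higher with CML and 0 were lower: FANCI and POLQ, with the smallest p, followed by RAD51D, BRIP1, BRCA2 and FANCG. That is 6 of 40, where 5.65% of the 13047 expressed genes (mean CPM of 1 or more) were higher and 2.64% lower by the same measure. The mean log2 difference was above 0 for 36 of the 40 genes and below 0 for RAD50, RAD51C, MRE11 and RAD52, while 58.8% of the expressed genes lay above 0. The sizes were small, with a median log2 difference of 0.061 for the 40 genes and 0.015 for the expressed genes, and 25 of the 40 differed by less than 0.1. In 3 genes, FANCI, POLQ and RAD51D, every CML library lay above every control library, and in 0 every CML library lay below, against 3.04% and 1.3% of expressed genes.

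The sign count depended on the scaling. The counts above 0 by role group, given below, are on the deposited scaling, where 58.8% of expressed genes lay above 0. After median centring of the libraries 28 of the 40 genes lay above 0, and after quantile normalization 32 did, with medians of 0.042 and 0.048. The medians of the expressed genes were then -0.0048 and 0.00019. It also depended on single libraries, falling to 30 of 40 without control replicate 1, control replicate 2 or CML replicate 4. Counts of genes higher at an unadjusted p by limma under 0.05 moved too. After median centring 4 were, against 3.23% of expressed genes, and after quantile normalization 5, against 4.22%. Without control replicate 2, CML replicate 2 or CML replicate 3 there were 4, against 4.49% to 4.87%. Without control replicate 4 or CML replicate 1 there were 7, against 9.83% and 5.07%. The calls at the adjusted threshold depended on control replicate 4. Without it, FANCI, BRIP1 and BRCA2 passed the adjusted threshold (adjusted p by limma of 0.188, 0.296 and 0.27) in a fit that called 3.91% of all genes. Without CML replicate 1 FANCD2 alone passed (adjusted p by limma of 0.277), in a fit that called 0.431% of all genes.

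**Figure D1:**
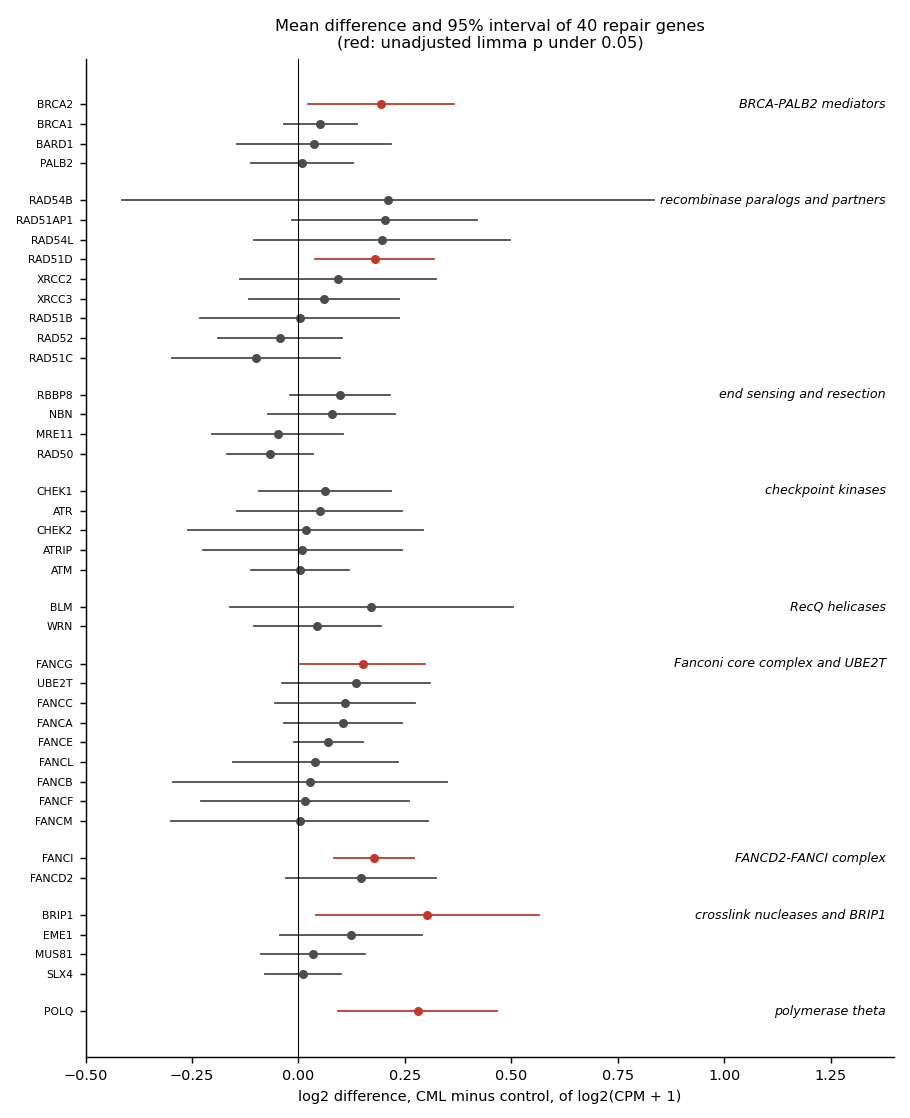
Mean log2 difference, CML minus control, of log2(CPM + 1) for the 40 genes in 9 role groups, with 95% intervals from limma (4 libraries a group; red marks an unadjusted p under 0.05). The points of 36 genes lie right of 0, and the intervals of 6 exclude 0.

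Genes of S phase, the replication machinery and nucleotide supply, had higher means with CML in the same libraries. Of 37 such genes, listed with earlier results of these data known, 36 lay above 0, against 58.8% of expressed genes. Their median log2 difference was 0.16. At an unadjusted p by limma under 0.05, 16 were higher, against 5.65% of expressed genes. The adjusted threshold, at which 0.674% of all genes were higher, was passed by 5. The 5 were the replicative helicase component CDC45 (0.43), the ribonucleotide reductase subunits RRM2 (0.39) and RRM1 (0.21), thymidylate synthase TYMS (0.35) and the chromatin reader UHRF1 (0.31). Their summed level was 808 to 814 CPM in the control libraries and 886 to 899 CPM in the CML libraries, without overlap. The summed level of the 40 repair genes was 830 to 896 CPM in the control libraries and 867 to 916 CPM in the CML libraries, which overlap. Both sums rest mostly on abundant genes. Examples are ATM and RAD50 (means of 112 and 93.6 CPM) among the repair genes, and MCM7 and CDC6 (128 and 102 CPM) among the S phase genes. The part of S phase transcription in the values of the repair genes was not tested. Since RNA was pooled over a culture, more cells transcribing a gene and more transcript per cell cannot be told apart.

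**Figure D2:**
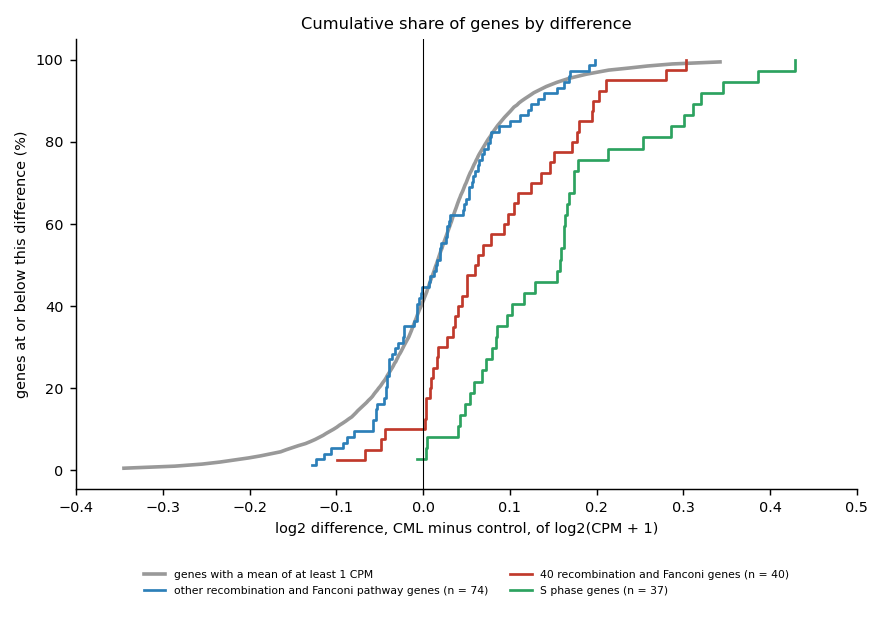
Cumulative share of genes (y axis, %) at or below a given log2 difference, CML minus control (x axis), for the 40 repair genes, 74 other genes of the same pathways, 37 S phase genes and all expressed genes. The curve of the 40 genes lies right of the grey curve of all genes and left of the S phase genes, and the other pathway genes follow the grey curve.

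Break sensing and resection came first in the order of repair, and its genes went both ways. RAD50, the coiled-coil ATPase that tethers broken ends (chr5:132556977-132646349), measured 92.2, 93.4, 96.3 and 101 CPM in control replicates 1 to 4, and 89.6, 87.5, 90.9 and 97.8 CPM in the CML libraries. The groups overlapped, and the log2 difference was -0.067 (95% interval -0.17 to 0.035; adjusted p by limma of 0.828), or -0.040 without control replicate 4. RAD50 shares 8124 of its 10565 exon bases with another gene on the same strand, AC116366.3, and its values were whole reads in only 1 of the 8 libraries. AC116366.3 itself was listed at 0, 1.76, 0.34 and 0.010 CPM in the control libraries and at 3.12, 5.52, 3.77 and 3.02 CPM in the CML libraries, and rose at an adjusted p by limma of 0.242. The sum of the pair was 92.2, 95.1, 96.6 and 101 CPM in the control libraries and 92.7, 93.0, 94.7 and 101 CPM in the CML libraries, a log2 difference of -0.016 (exact two-sided permutation p = 0.686). The summed pair thus differed less between groups than RAD50 alone.

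MRE11, the nuclease of the same complex, had a log2 difference of -0.048, and NBN, its adaptor to the kinase ATM, of 0.078. RBBP8, the co-factor of the MRE11 nuclease, had 0.097 (95% interval -0.021 to 0.22). All 4 intervals in this group included 0. NBN ranged from 72.0 to 89.1 CPM across the control libraries, wider than across the CML libraries (81.9 to 85.9 CPM).

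The kinases that signal the damage had small mean differences between the groups. All 5 genes lay above 0 on the deposited scaling, but the largest log2 difference among them was 0.063, for CHEK1, the effector kinase of the replication checkpoint. ATM, the kinase recruited to breaks and the most abundant of the 40 by CPM, measured 108, 109, 110 and 121 CPM in the control libraries and 108, 109, 111 and 121 CPM in the CML libraries. Its difference was 0.0028, with an interval of -0.11 to 0.12, and replicate 4 was the highest in each group. ATR, the kinase of single-stranded DNA, and its partner ATRIP had differences of 0.050 and 0.0095, and CHEK2, the effector of ATM, of 0.017. The intervals were wider for CHEK2 (-0.26 to 0.29) and ATRIP (-0.22 to 0.24) than for ATM. ATRIP shares 1448 of its 5431 exon bases with the exonuclease gene TREX1 on the same strand, and its values were whole reads in 2 libraries.

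Of the mediators that load the recombinase, BRCA2 had the largest difference. BRCA2 (chr13:32315077-32400268), which delivers the recombinase to single-stranded DNA, measured 13.1, 13.4, 15.1 and 16.1 CPM in the control libraries and 15.7, 16.3, 16.9 and 17.4 CPM in the CML libraries. Only control replicate 4 reached into the CML range, above CML replicate 1. The log2 difference was 0.19 (95% interval 0.023 to 0.37; exact permutation p = 0.0571, adjusted p by limma of 0.574). Its unadjusted p by limma was above 0.05 without control replicate 1 or 2, or without CML replicate 2, 3 or 4, reaching at most 0.0794, and it was 0.00713 without control replicate 4.

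BRCA1 (chr17:43044295-43170327), the ubiquitin ligase that promotes end resection and recruits PALB2, differed much less. It measured 17.4, 18.2, 18.5 and 18.6 CPM in the control libraries and 18.1, 18.7, 19.0 and 19.8 CPM in the CML libraries. The ranges overlapped, with a log2 difference of 0.051 and a 95% interval of -0.035 to 0.14 (adjusted p by limma of 0.862). Without CML replicate 4 or control replicate 1 it was 0.029 and 0.031. Its partner BARD1 had a difference of 0.036, and PALB2, the bridge between BRCA1 and BRCA2, of 0.0079. The differences of BRCA1 and BRCA2 were not tested against each other.

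Among the recombinase paralogs and partners, 7 of 9 genes lay above 0. RAD51D (chr17:35092221-35119860), a paralog that belongs to the BCDX2 complex, measured 12.4, 11.5, 12.2 and 10.6 CPM in the control libraries and 13.6, 14.1, 12.9 and 12.8 CPM in the CML libraries. The groups did not overlap, and the log2 difference was 0.18 (95% interval 0.039 to 0.32; exact permutation p = 0.0286, adjusted p by limma of 0.507). Without CML replicate 2 the unadjusted p by limma was 0.0525. RAD51AP1 (chr12:4538890-4560047), which stimulates strand exchange, measured 8.05, 8.34, 7.86 and 7.35 CPM in the control libraries and 10.9, 8.40, 8.23 and 9.58 CPM in the CML libraries. CML replicate 3 lay below control replicate 2, so the groups overlapped, and the difference of 0.20 had an interval of -0.015 to 0.42 and was 0.13 without CML replicate 1.

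RAD51C (chr17:58692573-58735611), the paralog shared by both paralog complexes, lay on the other side of 0. It measured 7.57, 6.50, 7.44 and 8.15 CPM in the control libraries and 6.25, 6.69, 6.76 and 7.72 CPM in the CML libraries, with a log2 difference of -0.099 (95% interval -0.30 to 0.098; adjusted p by limma of 0.897). That difference was -0.15 without control replicate 2 or CML replicate 4, -0.062 without CML replicate 1 and -0.058 without control replicate 4. The other BCDX2 members, RAD51B and XRCC2, had differences of 0.0026 and 0.093, so that the 4 genes of this complex spanned -0.099 to 0.18. XRCC3, the partner of RAD51C in the second complex, had 0.060. It shares 5756 of its 7507 exon bases with KLC1 on the opposite strand, a gene that rose (log2 difference 0.12, adjusted p by limma of 0.218).

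RAD52, the annealing protein, had a difference of -0.043, and the translocases RAD54L and RAD54B had 0.20 and 0.21. RAD54L shares 813 of its 4078 exon bases with LRRC41 on the opposite strand. RAD54B was the least certain of the 40, with a 95% interval of -0.41 to 0.84. It shares 3511 of its 5319 exon bases with FSBP on the same strand, its values were whole reads in 2 libraries, and it measured 5.29, 2.19, 1.90 and 4.07 CPM in the control libraries against 4.15, 3.74, 4.39 and 3.02 CPM in the CML libraries. The sum of RAD54B and FSBP was steadier, at 4.60 to 5.97 CPM in the control and 5.04 to 6.53 CPM in the CML libraries, with a log2 difference of 0.076 (exact two-sided permutation p = 0.457). The RecQ helicases BLM and WRN, which unwind recombination intermediates, had differences of 0.17 and 0.044, with intervals that included 0.

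All 9 genes of the Fanconi core complex with UBE2T lay above 0 on the deposited scaling, with a median log2 difference of 0.070. FANCG (chr9:35073839-35079942), a scaffold of the core complex, measured 25.7, 23.2, 26.8 and 24.2 CPM in the control libraries and 26.6, 28.2, 30.5 and 26.2 CPM in the CML libraries. Control replicate 3 lay above CML replicates 1 and 4. The difference was 0.15 (95% interval 0.0044 to 0.30; exact permutation p = 0.0857, adjusted p by limma of 0.629), and the unadjusted p by limma was up to 0.11 without control replicate 1, 2 or 4 or CML replicate 2 or 3.

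FANCE (chr6:35452338-35467102), the subunit that touches FANCD2, measured 44.1, 39.4, 42.9 and 41.2 CPM in the control libraries and 43.5, 43.9, 44.1 and 44.4 CPM in the CML libraries. The CML libraries lay close together at the upper end of the control range, and the difference was 0.070 (95% interval -0.012 to 0.15), or 0.041 without control replicate 2. UBE2T had a difference of 0.14, FANCC of 0.11 and FANCA of 0.11, each with an interval that included 0. FANCA shares 2409 of its 12316 exon bases with ZNF276 on the opposite strand. The ubiquitin ligase subunit FANCL had 0.040, FANCB 0.027, FANCF 0.016 and the DNA translocase FANCM 0.0028. FANCB had the fewest reads, and its interval ran from -0.29 to 0.35.

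The FANCD2-FANCI pair, the substrate of the core complex, held the gene with the smallest p of the 40. FANCI (chr15:89243979-89317259) measured 19.6, 19.3, 21.2 and 21.5 CPM in the control libraries and 22.8, 23.4, 22.9 and 23.6 CPM in the CML libraries. The lowest CML library lay above the highest control library. The log2 difference was 0.18 (95% interval 0.084 to 0.27; exact permutation p = 0.0286), the adjusted p by limma was 0.304, just past the threshold of 0.3, and the unadjusted p stayed at or under 0.00962 with any single library left out. With a minimum mean of 1 CPM the unadjusted p by limma was 0.0108 and the adjusted p 0.50. After median centring they were 0.0112 and 0.531, and without the variance trend 0.00217 and 0.278. FANCI shares 458 of its 17853 exon bases with POLG on the opposite strand, which had a difference of 0.14 (adjusted p by limma of 0.474).

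FANCD2 (chr3:10026437-10101932) measured 11.3, 11.2, 11.4 and 10.9 CPM in the control libraries and 10.6, 13.2, 13.3 and 13.1 CPM in the CML libraries. CML replicates 2 to 4 lay above all controls, and CML replicate 1 lay below all of them. The difference was 0.15 (95% interval -0.030 to 0.32; adjusted p by limma of 0.743), and it was 0.22 without CML replicate 1, as given above.

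The crosslink nucleases and the helicase BRIP1 (FANCJ), which binds BRCA1, all lay above 0. BRIP1 (chr17:61679139-61863528) had the largest log2 difference of the 40, 0.30 (95% interval 0.042 to 0.56; exact permutation p = 0.0571, adjusted p by limma of 0.561). It measured 7.21, 5.62, 6.83 and 8.15 CPM in the control libraries and 7.76, 8.67, 9.57 and 9.08 CPM in the CML libraries. Control replicate 4 lay above CML replicate 1, and the unadjusted p by limma was up to 0.0741 without control replicate 2 or 3 or CML replicate 2, 3 or 4. EME1, the partner of the nuclease MUS81, had a difference of 0.12, MUS81 itself 0.034, and the scaffold SLX4 0.011 with an interval of -0.079 to 0.10. EME1 shares 541 of its 3294 exon bases with LRRC59 (mean of 377 CPM) on the opposite strand. MUS81 shares 759 of its 5448 exon bases with CFL1 (mean of 596 CPM), also on the opposite strand.

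POLQ (chr3:121431431-121545988), the polymerase of theta-mediated end joining, the backup route for breaks that recombination leaves, was low but separated. It measured 4.29, 3.84, 4.05 and 3.88 CPM in the control libraries and 4.98, 4.60, 4.88 and 5.97 CPM in the CML libraries. The lowest CML library lay above the highest control library, and CML replicate 4 was the highest of all. The log2 difference was 0.28 (95% interval 0.094 to 0.47; exact permutation p = 0.0286, adjusted p by limma of 0.422), and it ranged from 0.21 to 0.32 with a single library left out, the unadjusted p staying at or under 0.0267. The unadjusted p by limma was 0.0170 with a minimum mean of 1 CPM, 0.0266 after median centring and 0.00562 without the variance trend. For FANCI, RAD51D and POLQ the exact two-sided permutation p was 0.0286, the smallest that 4 against 4 libraries can give.

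**Figure D3:**
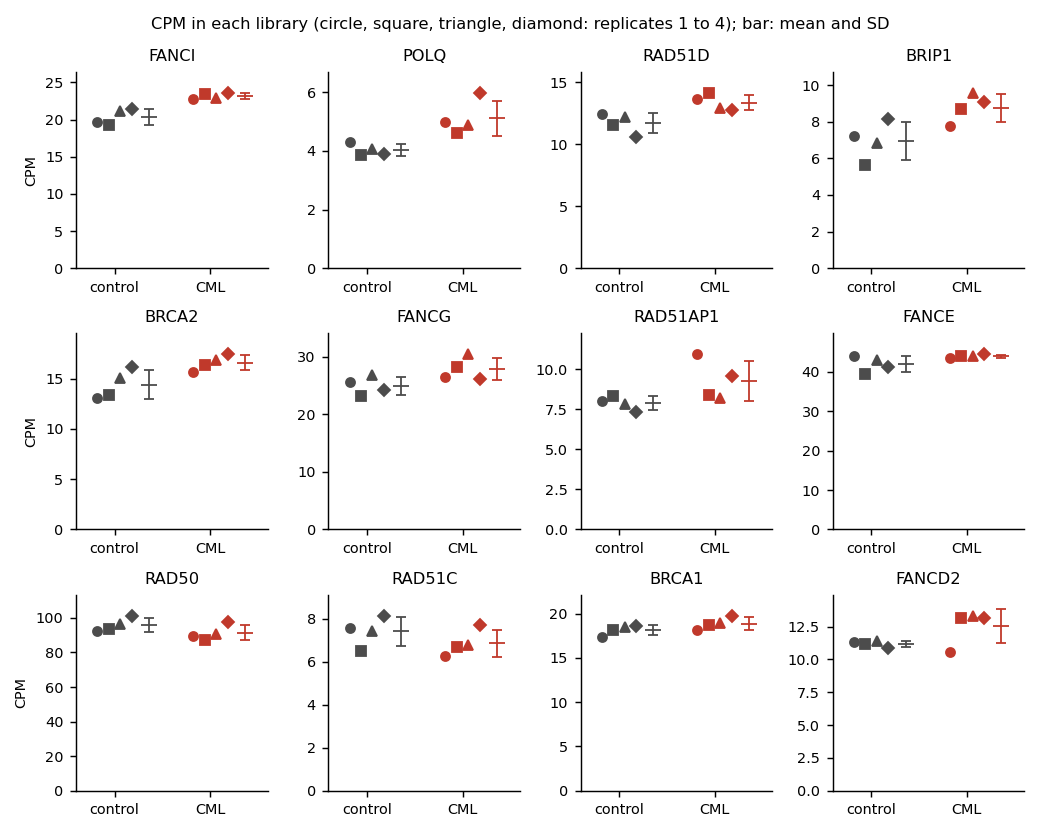
CPM (y axes, each from 0) in each of the 4 control and 4 CML libraries for the 12 genes described by library, with replicates 1 to 4 as circle, square, triangle and diamond, and the mean ± SD beside them. The CML libraries of FANCI, POLQ and RAD51D lie above all controls, those of RAD50 and RAD51C overlap with the controls and have the lower mean, and CML replicate 1 of FANCD2 lies below its controls.

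Among 74 other genes of the same pathways, 41 lay above 0, with a median log2 difference of 0.016, where 58.8% of expressed genes lay above 0. At an unadjusted p by limma under 0.05, 3 were higher and 1 lower, against 5.65% and 2.64% of expressed genes. Only 1 passed the adjusted threshold, at which 0.674% of all genes were higher. That gene was HLTF, a translocase that remodels stalled replication forks, at 33.9, 34.2, 35.7 and 37.2 CPM in the control libraries and 39.8, 41.0, 41.1 and 40.3 CPM in the CML libraries. The groups did not overlap, and HLTF rose by 0.20 log2 (95% interval 0.12 to 0.27; adjusted p by limma of 0.153). RPA1, the large subunit of the protein that coats single-stranded DNA, also did not overlap between groups (84.3 to 90.3 CPM against 94.9 to 104 CPM) but missed the threshold with an adjusted p by limma of 0.314. FIGNL1, which acts on recombinase filaments, had a difference of 0.14 (adjusted p by limma of 0.62) and the crosslink nuclease FAN1 of -0.11 (adjusted p by limma of 0.65). For the nuclease gene SLX1B, every CML library (8.29 to 8.83 CPM) lay below every control library (8.97 to 9.52 CPM), with an adjusted p by limma of 0.675. Its log2 difference was -0.092, while SLX1A, in the same list, went the other way at 0.19 (95% interval -0.27 to 0.65). The sum of SLX1A and SLX1B was not examined. Among the 74 genes, every CML library lay above every control library in 2 and below in 1, against 3.04% and 1.3% of expressed genes.

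Levels were compared between genes only after division by the length of the transcript annotated as canonical for each gene. UBE2T had the highest control level, 17.3 ± 0.75 CPM per kb (SD, n = 4), and NBN, RBBP8 and FANCE followed at 17.2 ± 1.6, 16.4 ± 0.96 and 16.3 ± 0.79 CPM per kb. FANCB and POLQ were the lowest, at 0.44 ± 0.11 and 0.46 ± 0.024 CPM per kb, and BRIP1 was next at 0.85 ± 0.13. BRCA1 (2.57 ± 0.077) was above BRCA2 (1.20 ± 0.12), and FANCI (4.31 ± 0.23) above FANCD2 (2.20 ± 0.047), without overlap of their control libraries. Most neighbours in this order could not be separated: for 31 of the 39 neighbouring pairs the control libraries overlapped. Among the steps without overlap were those from FANCE to MUS81, from MUS81 to RAD50, and from BRIP1 to POLQ. MUS81 and RAD50 share exon bases with other genes, as given above, so their levels are less certain than the spread between libraries shows.

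**Figure D4:**
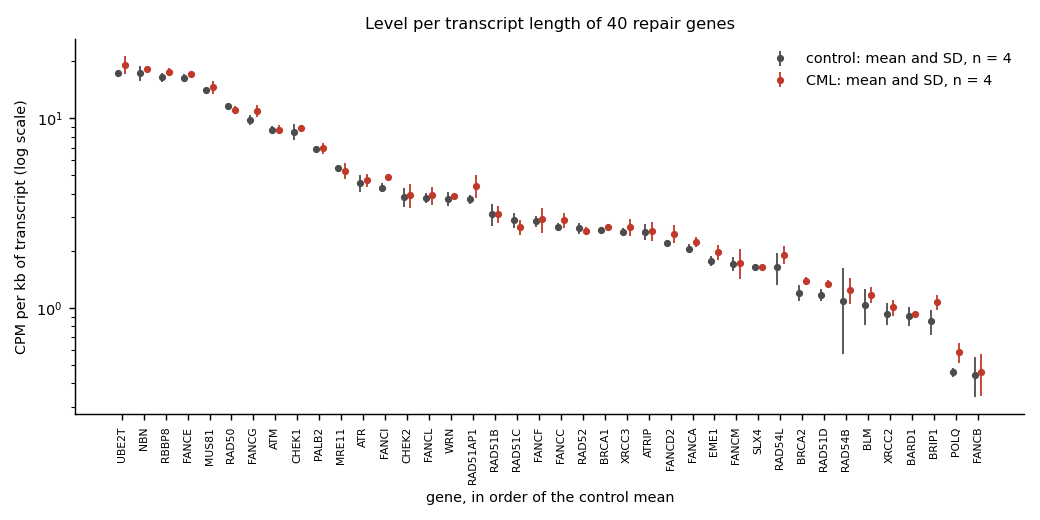
Level per transcript length (CPM per kb, log scale) of the 40 genes in control (grey) and CML (red) libraries, mean ± SD with n = 4, in order of the control mean. Levels run from 17.3 CPM per kb for UBE2T to 0.44 for FANCB, and the means of the groups lie close together for most genes.

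The libraries themselves varied on the scale of these differences. The median deviation of the 40 genes from their control means, on the log2 scale, was -0.0055, -0.043, 0.0078 and 0.057 in control replicates 1 to 4, and 0.038, 0.087, 0.057 and 0.11 in the CML libraries. Control replicate 4 lay near CML replicate 3 and above CML replicate 1, and the SD within groups was 0.037. Replicate 4 was the highest library of both groups for 11 of the 40 genes (27.5%, among them ATM, ATR, BRCA1, BRCA2, RAD50 and FANCI) against 19.2% of expressed genes. The 40 genes also had longer and less GC-rich transcripts than the expressed genes, with medians of 4.58 against 3.25 kb and of 41.8% against 47.9% GC. After a correction of every library for GC content and transcript length, FANCI, BRIP1, BRCA2 and FANCG rose and RAD50 fell at an adjusted p under 0.3 by limma, in a fit that called 6.78% of 12928 genes. Under that correction the log2 differences were 0.16, 0.28, 0.17, 0.15 and -0.087.

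**Figure D5:**
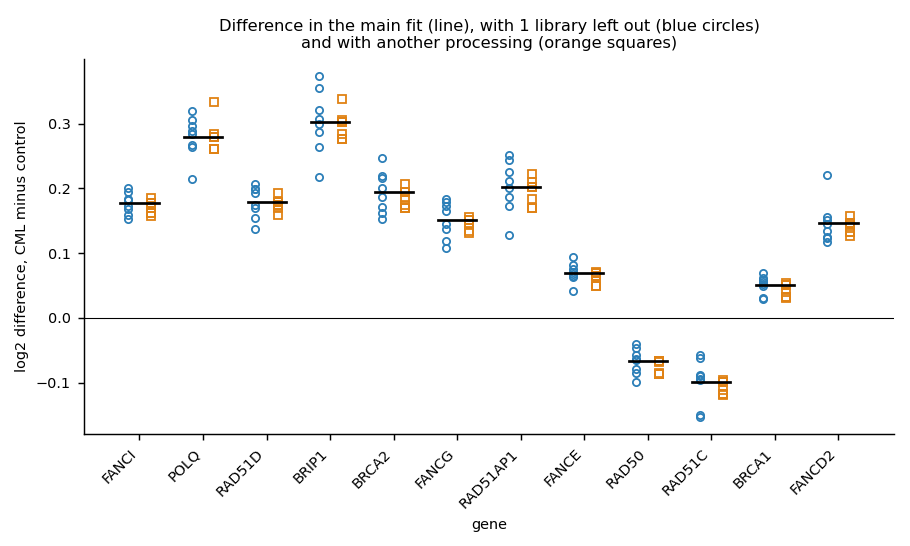
Log2 difference, CML minus control, of the 12 genes described by library: the main value (black line), the 8 fits with 1 library left out (blue circles) and the fits with another processing (orange squares). No gene crosses 0, but with a library left out RAD50 ranges from -0.040 to -0.099, RAD51C from -0.058 to -0.15, RAD51AP1 from 0.13 to 0.25, FANCE from 0.041 to 0.094, BRCA1 from 0.029 to 0.070 and FANCD2 from 0.12 to 0.22.

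The depth set a limit for the less abundant genes. In 29 of the 40 genes every library held at least 100 reads, and in 28 the spread between replicates was within 1.5 times what counting alone gives, with a median ratio of 1.24. The 95% interval, on the log2(CPM + 1) scale and in the fit with no filter, lay within ±0.3 for 27 of the 40 genes. For these a larger mean difference on that scale was not covered by the interval. The intervals depend on the fit. With a minimum mean of 1 CPM the standard error was 0.063 against 0.036 for BRCA1 and 0.061 against 0.039 for FANCI. For BRIP1 it was 0.106 against 0.110.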

How the data were processed

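Per library, the authors deposited a column of CPM values, for 8 libraries and 17681 rows of Ensembl identifiers with gene symbols. The submitters' processing notes name edgeR and hg38. The aligner, the counting tool and the use of strand for this experiment are not given in the sources used here, and a NextSeq and a HiSeq machine are both named in the labels. Groups came from the sample titles. Rows of the 32 repeated symbols were averaged, as in the study's methods, leaving 17649. Values fell on steps of 1 read, but only 85.1% to 86.1% of values above 0 were whole reads within 0.02, so the counts behind them were estimates and no count test was run. All of the 40 genes were whole in every library except RAD50, RAD52, RAD54B and ATRIP. For counting error, 1 read is the unit, which covers counting only.

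Differences are means of log2(CPM + 1), a scale that understates changes of low genes, tested with limma 3.58.1 (R 4.3.3) with a mean-variance trend, no covariates and no filter, two-sided, and adjusted by Benjamini-Hochberg over 17649 genes, with 0.3 as the threshold after the study's legend. This script was tested on simulated data. Exact permutation tests used all 70 labellings. Coordinates are RefSeq's (GRCh38.p14, the build of hg38). Transcript length, GC content and shared exons came from a GENCODE annotation of GRCh37, by gene identifier and with no coordinates taken. Values were given by library for any of the 40 genes that passed the adjusted threshold (none did), the 8 with the smallest p, the 2 lower ones with the smallest p, BRCA1, BRCA2, FANCD2 and FANCI, and ATM and RAD54B were added after their values were seen. The genes and lists were chosen with earlier results of these data known. Alternatives are given in the closing section.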

Additional observations from a re-analysis of the deposited data

Results flagged for a closer look

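FANCD2 in CML replicate 1 measured 10.6 CPM, and its gap to the nearest of the other 3 CML libraries was 0.921 of the group's range. It was the only library that stood this far from its group among 24 groups of 4 tested, the 12 genes in both conditions. The limit for this flag is one that chance passes in about 1 in 20 groups, or 1.2 of 24. How often chance gives a gap as large as 0.921 was not computed.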

How the results depend on the processing

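Across the alternatives, the 12 genes described by library kept the direction of their difference, and 177 of their values stayed on the same side of the adjusted threshold while 15 passed it only in the alternative. The number of the 40 genes past an adjusted p of 0.3 was 0 in the fit reported, 1 (FANCI) without the variance trend, 5 with GC content and length removed, and 5 with that and a replicate block, in fits that called 0.895%, 0.929%, 6.78% and 7.23% of all genes tested. With 1 library left out it ranged from 0 to 3. It was 0 with a pseudocount of 0.1, with a minimum mean of 1 CPM, with median centring and with quantile normalization. The causes were not tested. Among all genes with at least 1 CPM, 108 were higher and 25 lower at an adjusted p under 0.3, against 40 and 17 after median centring and 79 and 42 after quantile normalization. Of all 17649 genes, 158 passed with all libraries, 690 without control replicate 4, 105 without CML replicate 4, 91 without control replicate 1, 76 without CML replicate 1, 72 without control replicate 3, 45 without control replicate 2, 44 without CML replicate 3 and 20 without CML replicate 2. Same-numbered libraries did not deviate together in every pair (correlations -0.065 to 0.33, above 0.1 in 2 of the 4 pairs). The correlations of replicates 1 and 4, 0.20 and 0.33, were above all those between libraries of other numbers (-0.30 to 0.11). Whether the numbers pair the samples is not stated and cannot be told from these values. With the replicate block, 0 of the 40 genes passed the adjusted threshold, where 1.07% of all genes did. At an unadjusted p by limma under 0.05, 7 were then higher and 1 lower, against 7.74% and 3.23% of the expressed genes.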
